A study of Mus musculus with 6 samples.

Results

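Interferon-stimulated genes are the genes that cells switch on when interferon binds its receptor. A list of 39 genes, such genes together with the receptor chains, was followed through 6 libraries of mouse epidermal cells. They were found by Ensembl identifier among the 38924 genes of the count table. All 39 passed the filter on low counts. The members comprised the 2 chains of the type I interferon receptor, 4 transcription factors of the pathway and 33 induced genes, most of them antiviral. RNA had been sequenced from CD49f-positive cells sorted from skin; CD49f is integrin alpha 6, an adhesion receptor of basal keratinocytes. Every library came from animals with both Rnaseh2b alleles floxed (flox/flox), controls included, and the age, sex and strain of the animals were not given in the sources used here. The 3 K14-Cre+ libraries also carried Cre recombinase under the keratin 14 promoter, which is active in basal keratinocytes and other stratified epithelia, and the 3 K14-Cre- libraries lacked it. Rnaseh2b encodes a subunit of RNase H2, which removes ribonucleotides from DNA, and loss of that enzyme is known in other settings to set off interferon signalling through sensing of DNA in the cytosol. The comparison asks whether interferon-stimulated genes differ between these cells with and without the Cre.

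Type I interferon binds a receptor made of IFNAR1 and IFNAR2, whose kinases phosphorylate STAT2. STAT2 and IRF9 are parts of the factor ISGF3, which binds the interferon-stimulated response element, a DNA motif with a repeat of GAAA, in front of its target genes. Several members of the pathway, among them Stat2, Irf9 and Irf7, are themselves targets, so that the response amplifies itself, while Usp18 acts as a brake on the receptor.

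None of the 39 members passed the threshold of the edgeR quasi-likelihood test (adjusted p under 0.05 over all 15525 genes tested), against 0.406% of all genes called higher and 0.11% called lower. At an unadjusted p under 0.05, 10 members were higher in K14-Cre+ cells and 0 lower, which is 25.6% of the members against 10.3% of all genes higher and 8.48% lower. Limma-voom called 0 members, against 0.335% of all genes higher, with 11 higher at an unadjusted p under 0.05, against 9.6% of all genes. The Wald test of DESeq2 called 5, all higher (Ddx58, Ifi204, Lgals3bp, Bst2 and Eif2ak2), where DESeq2 called 3.57% of all genes higher. The log2 fold change, K14-Cre+ minus K14-Cre-, was positive for 30 members and negative for 9, with 49.0% positive among all genes. Its median over the members was 0.35, against -0.0048 over all genes tested. When K14-Cre+ replicate 1 was left out, that median was 0.081, 20 members were positive against 47.4% of all genes, and 0 were called against 0.127% of all genes called higher.

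Replicate numbers follow the order of deposit and pair no libraries. Library totals ran from 22948779 to 31718094 counts, and 3 counts, the floor used here, corresponded to 0.0922 to 0.143 CPM (counts scaled to a common library size). The targeted gene Rnaseh2b lay at 3.28 to 5.29 CPM in K14-Cre+ and 20.7 to 21.8 CPM in K14-Cre- libraries, so that the K14-Cre+ mean was 19.6% of the K14-Cre- mean (adjusted p = 0.0102 by edgeR). The 6 keratinocyte markers (Krt5, Krt14, Itga6, Itgb4, Col17a1 and Trp63) summed to between 14560 and 16910 CPM in each library. Xist exceeded Y-linked transcripts in 1 of 3 K14-Cre+ and 2 of 3 K14-Cre- libraries, so both sexes were present in each group. K14-Cre+ replicate 3 stood apart in the table as a whole, with the highest value of the 6 libraries for 29.1% of all tested genes. K14-Cre+ replicate 1 stood apart for the genes described here. Whether the libraries are separate animals is not stated, so p-values measure the spread between these libraries, part of which may be technical.

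The response element was looked for in the reference sequence of the promoters, because it is the motif that ISGF3 binds. RefSeq windows (build GRCm38.p6, a patch release of the assembly that mm10 names) of 300 bases, 250 before and 50 after an annotated gene start, were found for 30 of the 39 members. The core was GAAA, any 2 bases and GAAA again, or its reverse complement (TTTC, any 2 bases, TTTC), so that both strands were searched and matches could overlap. It was in the window of 14 of these 30 genes (46.7%), against 3.99% of 27025 genes with a window and 3.66% of the 11164 tested genes with one. The 6 stretches below show the core in 3 members that had an unadjusted p under 0.05 (Stat2, Oas1a, Bst2), in Gbp3, and in Isg15 and Ifit1, textbook induced genes whose groups overlapped. Capitals mark the cores, the flanks are up to 12 bases, each stretch lies before the annotated start and is written on the strand of its gene.
Stat2: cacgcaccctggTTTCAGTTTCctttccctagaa
Oas1a: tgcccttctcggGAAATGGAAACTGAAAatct
Bst2: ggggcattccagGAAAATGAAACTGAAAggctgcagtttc
Gbp3: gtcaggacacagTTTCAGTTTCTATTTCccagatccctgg
Isg15: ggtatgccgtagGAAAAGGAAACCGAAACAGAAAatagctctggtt
Ifit1: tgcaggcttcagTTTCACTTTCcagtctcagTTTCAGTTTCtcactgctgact

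The Stat2 stretch lies at chr10:128270264-128270297 on the plus strand and its core ends 212 bases before the start, the farthest of the 6. Oas1a (chr5:120907526-120907557, minus strand) holds 2 overlapping cores, the last ending 4 bases before the start. Bst2 (chr8:71537575-71537614, minus strand) holds 2 overlapping cores ending 114 bases before it. Gbp3 (chr3:142559987-142560026, plus strand) holds 2 overlapping cores ending 29 bases before the start. Isg15 (chr4:156200863-156200908, minus strand) holds 3 overlapping cores ending 56 bases before it. Ifit1 (chr19:34640773-34640825, plus strand) holds 2 separate cores, the nearer ending 75 bases before the start. In Ddx58 and Eif2ak2 the core ended 12 and 28 bases after the annotated start, within the transcribed part. The windows of Irf9, Xaf1 and Lgals3bp held no core. The 14 members with a core had a median log2 fold change of 0.39, with 5 of them at an unadjusted p under 0.05, and the 16 without it had 0.13, with 3, where 10.3% of all genes were higher at that level. Without K14-Cre+ replicate 1 the medians were 0.16 and -0.093, with 4 and 2 members at that level against 12.1% of all genes. The set without a core included the receptor genes Ifnar1 and Ifnar2. Dhx58, Ifi204, Ifi27l2a, Mx1, Mx2, Oas2, Parp14, Rtp4 and Usp18 had no window and were in neither set. A motif match describes the sequence and does not show that a factor was bound.

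The receptor genes, which sense the interferon itself, did not pass the test. Ifnar1 lay at 48.4, 46.1 and 45.1 CPM in K14-Cre+ replicates 1, 2 and 3 and at 45.6, 49.1 and 51.2 CPM in K14-Cre- replicates 1, 2 and 3. Ifnar2 lay at 10.4, 9.87 and 9.08 CPM against 10.8, 11.7 and 9.63 CPM. The groups overlapped for both chains. The log2 fold change of Ifnar1 was -0.063 with a 95% interval from -0.24 to 0.11, and that of Ifnar2 was -0.13, from -0.40 to 0.14.

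Among the transcription factors, the 2 ISGF3 partners Stat2 and Irf9 were separated between the groups and Irf7 and Irf1 were not. Stat2 lay at 33.3, 23.4 and 23.3 CPM in K14-Cre+ and at 20.2, 20.7 and 18.7 CPM in K14-Cre- libraries. The fitted log2 fold change was 0.43 (adjusted p = 0.209 by edgeR, SE 0.15), and 0.23 without K14-Cre+ replicate 1. Irf9, the DNA-binding part of ISGF3, lay at 52.8, 32.7 and 37.2 CPM against 24.1, 31.1 and 26.0 CPM. On the log2 scale the difference was 0.60 (adjusted p = 0.182 by edgeR, SE 0.19), and 0.37 without that library. All 3 K14-Cre+ libraries lay above all 3 K14-Cre- libraries for both genes, with replicate 1 highest. For Irf9 the margin was small, 32.7 against 31.1 CPM. Irf7, the factor that drives the later wave of interferon alpha genes, lay at 41.4, 36.0 and 19.96 CPM against 43.8, 40.3 and 37.8 CPM. Its log2 fold change was -0.32 (adjusted p = 0.499 by edgeR, SE 0.24), and replicate 3 was the low library. Irf1, which responds more to interferon gamma, lay at 6.64, 6.02 and 4.47 CPM against 5.78, 6.53 and 5.75 CPM, and the groups overlapped (log2 fold change -0.072).

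Of the sensors of viral RNA, Ddx58 had the smallest adjusted p of the 39 members. Ddx58 (chromosome 4 from 40203773 to 40239828, minus strand, mm10) encodes RIG-I, which detects RNA with a free triphosphate end. It lay at 23.3, 15.4 and 18.9 CPM in K14-Cre+ and at 10.3, 13.4 and 10.8 CPM in K14-Cre- libraries. The log2 fold change was 0.74 (adjusted p = 0.118 by edgeR, SE 0.17), and 0.57 without K14-Cre+ replicate 1. Eif2ak2, which encodes the RNA-activated kinase PKR that halts translation, lay at 35.4, 31.2 and 25.6 CPM against 22.1, 22.2 and 21.6 CPM. The fitted log2 fold change was 0.49 (adjusted p = 0.130 by edgeR, SE 0.12), and without K14-Cre+ replicate 3 it was the 1 member that passed the threshold (0.60, adjusted p = 0.0133 by edgeR, against 1.81% of all genes called higher). The groups did not overlap for either gene. Dhx58, which encodes LGP2, a regulator of RIG-I, lay at 6.21, 2.52 and 2.95 CPM against 3.33, 4.03 and 3.20 CPM. Here replicate 1 alone was high, and replicates 2 and 3 lay below every K14-Cre- library.

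The IFIT genes, whose proteins bind foreign RNA ends, overlapped between the groups. Ifit1 lay at 6.70, 3.50 and 2.85 CPM in K14-Cre+ and at 3.13, 3.66 and 3.50 CPM in K14-Cre- libraries, with a log2 fold change of 0.36 (adjusted p = 0.571 by edgeR). Ifit3 lay at 5.38, 3.41 and 3.37 CPM against 2.49, 3.70 and 3.39 CPM, with 0.35, and 0.088 without replicate 1. Ifit2 had -0.041 and lay at 6.24, 4.69 and 3.28 CPM against 4.49, 4.68 and 5.52 CPM. In each of the 3 genes replicate 1 was the highest library of the 6. Ifit3 has a close copy, Ifit3b, and the counting could divide their reads.

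Of the oligoadenylate synthetases, which make the messenger that activates RNase L, Oas1a alone had groups that did not overlap. It lay at 5.66, 2.79 and 2.71 CPM against 2.05, 2.01 and 2.28 CPM, with a log2 fold change of 0.82 (adjusted p = 0.232 by edgeR, SE 0.32) and 0.38 without K14-Cre+ replicate 1. Oasl2 lay at 18.9, 7.48 and 8.41 CPM against 6.38, 8.67 and 7.50 CPM, so that replicate 1 lay above the other K14-Cre+ libraries and those overlapped the K14-Cre- range. On the log2 scale the difference was 0.64 (adjusted p = 0.371 by edgeR), and 0.081 without replicate 1. Oas2, Oas3 and Oasl1 were low, between 0.752 and 1.78 CPM, with log2 fold changes of 0.14, -0.041 and 0.12. Oas1a belongs to a cluster of near-identical genes, so its counts are uncertain.

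The ISG15 system attaches a ubiquitin-like protein to other proteins. Isg15, which encodes that protein, lay at 14.5, 8.85 and 5.70 CPM in K14-Cre+ and at 6.26, 8.75 and 8.03 CPM in K14-Cre- libraries. Its log2 fold change was 0.34 (adjusted p = 0.587 by edgeR, SE 0.32) with a 95% interval from -0.41 to 1.10, and -0.075 without replicate 1. Usp18, the protease that removes ISG15 and restrains the receptor, lay at 4.36, 2.74 and 2.23 CPM against 1.44, 2.75 and 2.28 CPM, and Herc6, the ligase that attaches ISG15 in mice, at 1.54, 0.841 and 0.665 CPM against 1.16, 1.03 and 0.609 CPM. The groups overlapped for all 3 genes, and replicate 1 was the highest library for each.

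Of the large GTPases, which form assemblies around viral components, Gbp3 had groups that did not overlap, at 4.06, 2.43 and 2.33 CPM against 1.84, 2.26 and 1.37 CPM. The margin was small, 2.33 against 2.26 CPM. The fitted log2 fold change was 0.70 (adjusted p = 0.268 by edgeR, SE 0.30), and 0.39 without replicate 1. Mx2 lay at 3.10, 1.90 and 2.33 CPM against 1.04, 2.30 and 1.18 CPM (log2 fold change 0.71, adjusted p = 0.327 by edgeR). Gbp2 had 0.17 and lay between 2.57 and 7.71 CPM over the 6 libraries, with both ends in K14-Cre+ libraries. Mx1, which many laboratory strains carry in a defective form, had -0.15 and was highest by CPM in K14-Cre- replicate 2.

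Rtp4 and Xaf1, among the other antiviral effectors, had the highest log2 fold changes of the 39 members. Rtp4 (chromosome 16 from 23609919 to 23614222, plus strand, mm10), which encodes a chaperone of membrane receptors that also dampens viral replication, lay at 6.70, 3.01 and 3.75 CPM in K14-Cre+ and at 1.44, 2.55 and 2.17 CPM in K14-Cre- libraries. On the log2 scale the difference was 1.14 (adjusted p = 0.179 by edgeR, SE 0.35), and 0.72 without replicate 1. Bst2, which encodes tetherin, the protein that holds budding virus at the cell surface, lay at 23.0, 13.6 and 12.8 CPM against 8.14, 10.8 and 10.1 CPM. Its log2 fold change was 0.77 (adjusted p = 0.179 by edgeR, SE 0.24), and 0.45 without replicate 1. Xaf1, a gene linked to cell death, lay at 7.96, 3.41 and 3.18 CPM against 2.57, 3.04 and 1.71 CPM, with a log2 fold change of 1.004 (adjusted p = 0.247 by edgeR, SE 0.41) and 0.44 without replicate 1. These 3 genes had groups that did not overlap, and replicate 1 was highest in each. For Xaf1 the margin was small, 3.18 against 3.04 CPM.

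The remaining effectors overlapped. Parp14, an ADP-ribosyltransferase gene, lay at 16.0, 7.83 and 8.601 CPM against 7.06, 8.62 and 6.36 CPM (log2 fold change 0.57, and 0.16 without replicate 1), and Rsad2, which encodes viperin, at 6.12, 5.36 and 3.18 CPM against 2.57, 4.23 and 2.97 CPM (0.59, and 0.39 without replicate 1). Samd9l, Trim30a and Cmpk2 had 0.14, 0.028 and 0.025. Isg20, an exonuclease gene, had the lowest value of all members, -0.35 (adjusted p = 0.504 by edgeR). It lay at 1.17, 1.46 and 2.19 CPM against 2.13, 2.01 and 1.94 CPM, so that K14-Cre+ replicate 1 was its lowest library.

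Among the other induced genes, Ifi204 and Lgals3bp were separated between the groups. Ifi204 (chromosome 1 from 173747293 to 173766876, minus strand, mm10) encodes a DNA-binding protein of the p200 family that takes part in the sensing of cytosolic DNA. It lay at 9.496, 6.68 and 9.69 CPM against 4.45, 5.34 and 5.56 CPM, with a log2 fold change of 0.75 (adjusted p = 0.124 by edgeR, SE 0.18) and 0.68 without replicate 1. It was the only one of the 12 members with separated groups in which a library other than replicate 1 was the highest. The p200 family holds close copies, so its counts are uncertain. Lgals3bp, which encodes a secreted galectin-binding protein, lay at 21.9, 12.8 and 14.1 CPM against 8.34, 10.2 and 9.17 CPM (log2 fold change 0.82, adjusted p = 0.135 by edgeR, SE 0.21, and 0.54 without replicate 1). Ifi35 was separated by a small margin, at 18.1, 14.5 and 15.1 CPM against 14.4, 13.6 and 12.1 CPM (0.25, and 0.15 without replicate 1), and Gm11626 on the opposite strand, itself at a mean of 1.5 counts, covers 16.8% of its exon length. Ifi27l2a lay at 12.2, 4.56 and 3.14 CPM against 3.45, 4.56 and 3.996 CPM, so its log2 fold change of 0.74 came with an interval from -0.37 to 1.85 and was -0.054 without replicate 1. Ifi44 lay at 2.67, 1.06 and 1.47 CPM against 0.882, 1.52 and 1.14 CPM, with 0.57 (adjusted p = 0.454 by edgeR) and 0.10 without replicate 1. Cxcl10, a chemokine that draws T cells, lay at 8.18, 7.92 and 3.37 CPM against 6.06, 8.502 and 7.23 CPM (-0.15); Art3 on the opposite strand covers 8.75% of its exon length.

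**Figure D1:**
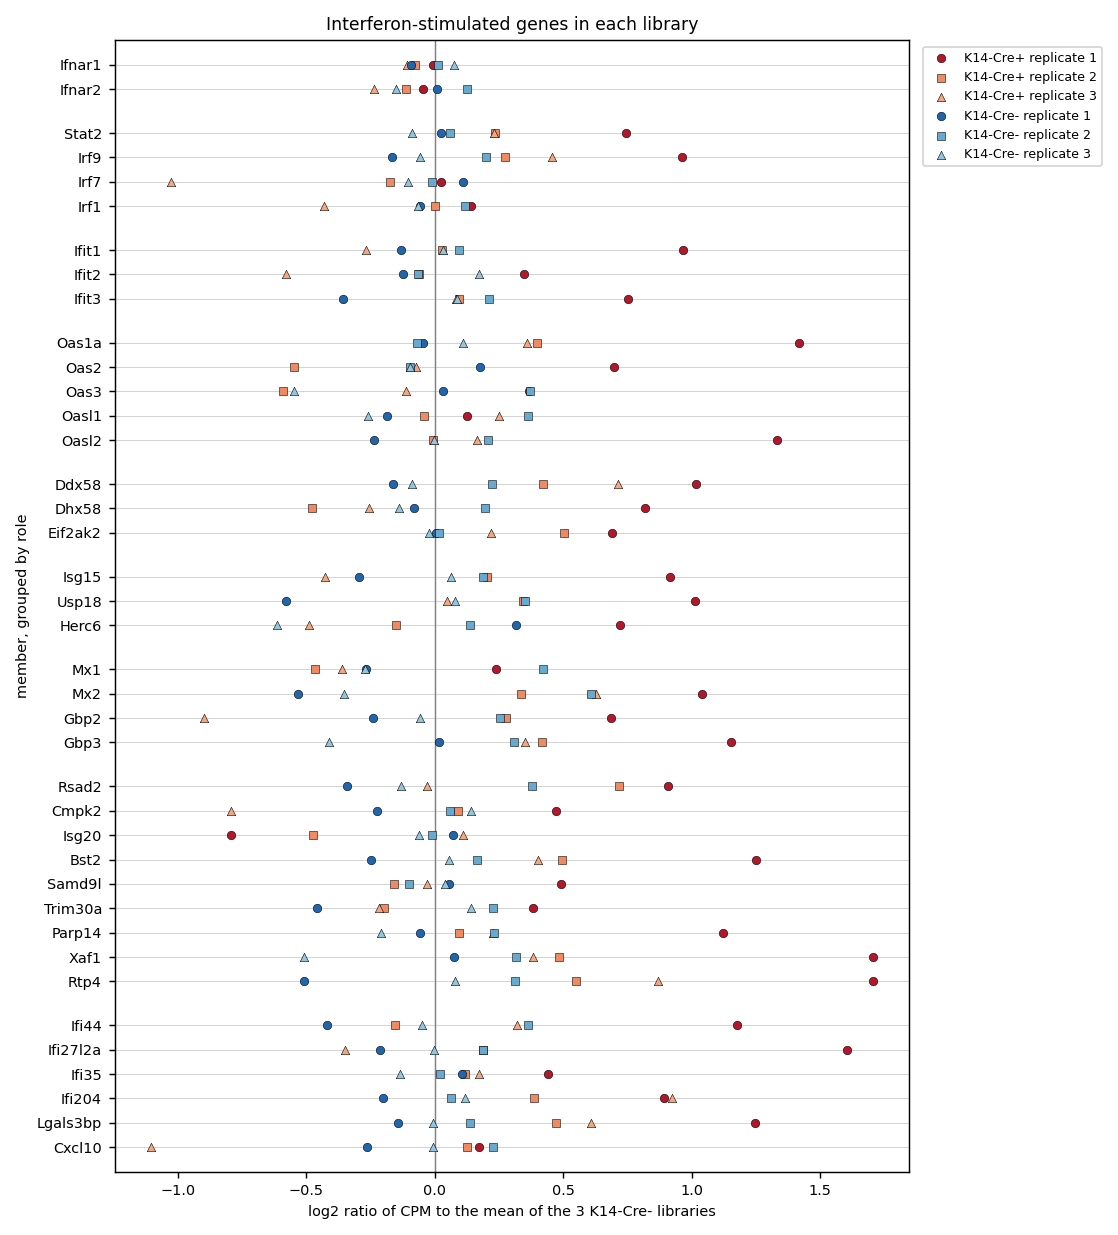
The plot gives the log2 ratio of CPM to the mean of the 3 K14-Cre- libraries (x axis) for each of the 39 members by role (y axis), 1 point per library. K14-Cre+ replicate 1, the dark red circles, lies farthest right for 30 members, and for Stat2, Irf9, Oas1a, Ddx58, Eif2ak2, Gbp3, Bst2, Xaf1, Rtp4, Ifi35, Ifi204 and Lgals3bp all red points lie right of all blue points.

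Seen across libraries, K14-Cre+ replicate 1 stood above the rest. That library held the highest value of the 6 for 30 of 39 members (76.9%), against 14.2% of all tested genes. The median log2 ratio of the members to the K14-Cre- mean was 0.75 in replicate 1, 0.095 in replicate 2 and 0.048 in replicate 3. The 3 K14-Cre- libraries had -0.14, 0.19 and -0.056, so K14-Cre+ replicates 2 and 3 lay within the range of the controls. The lowest median over all tested genes was -0.030, in K14-Cre+ replicate 3.

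**Figure D2:**
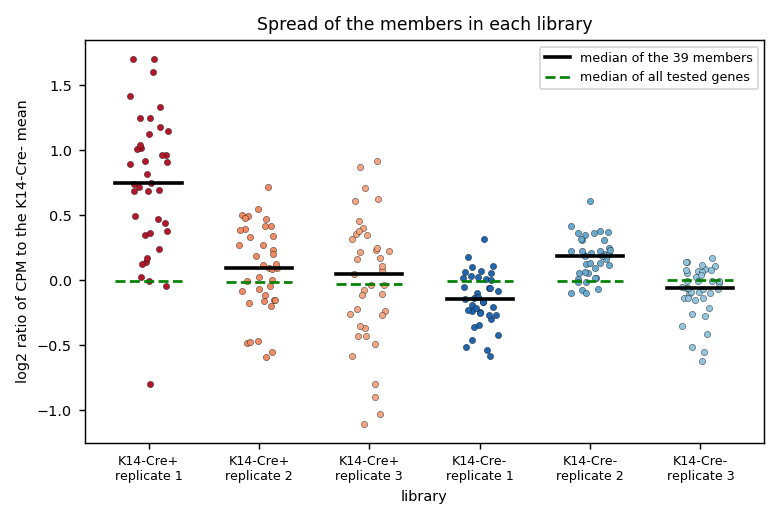
Each point is 1 of the 39 members, placed by library (x axis) and by the log2 ratio of its CPM to the K14-Cre- mean (y axis); black lines are medians of the members and green dashed lines medians of all tested genes. The black line stands at 0.75 in K14-Cre+ replicate 1 and between -0.14 and 0.19 in the other 5 libraries.

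In 12 members (30.8%) all K14-Cre+ libraries lay above all K14-Cre- libraries, against 14.1% of all tested genes, and in 0 members they lay below, against 13.8%. The 12 were Stat2, Irf9, Oas1a, Ddx58, Eif2ak2, Gbp3, Bst2, Xaf1, Rtp4, Ifi35, Ifi204 and Lgals3bp. With replicate 1 set aside, replicates 2 and 3 lay above all K14-Cre- libraries in no further member, so in these 12, which meet that condition by their definition, against 20.4% of all genes. They lay below all K14-Cre- libraries in 3 (Irf7, Dhx58 and Mx1), against 20.8%. As a description of values already used to form these sets, the 12 had a median log2 fold change of 0.75 with all libraries and 0.41 without replicate 1. The other 27 had 0.14 and -0.15, and the number of them with a positive value went from 18 to 8. Without replicate 1, 8 members had an unadjusted p under 0.05, all higher (Ddx58, Eif2ak2, Ifi204, Lgals3bp, Bst2, Irf9, Rtp4 and Stat2), against 12.1% of all genes higher and 9.49% lower. With sex as a covariate 7 members were higher at that level, against 12.3% of all genes, and without K14-Cre+ replicate 3 there were 17, against 10.4%. With scaling by total count alone 5 members were higher at that level, against 5.71% of all genes, and without K14-Cre- replicate 1 there were 4, against 6.49%.

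**Figure D3:**
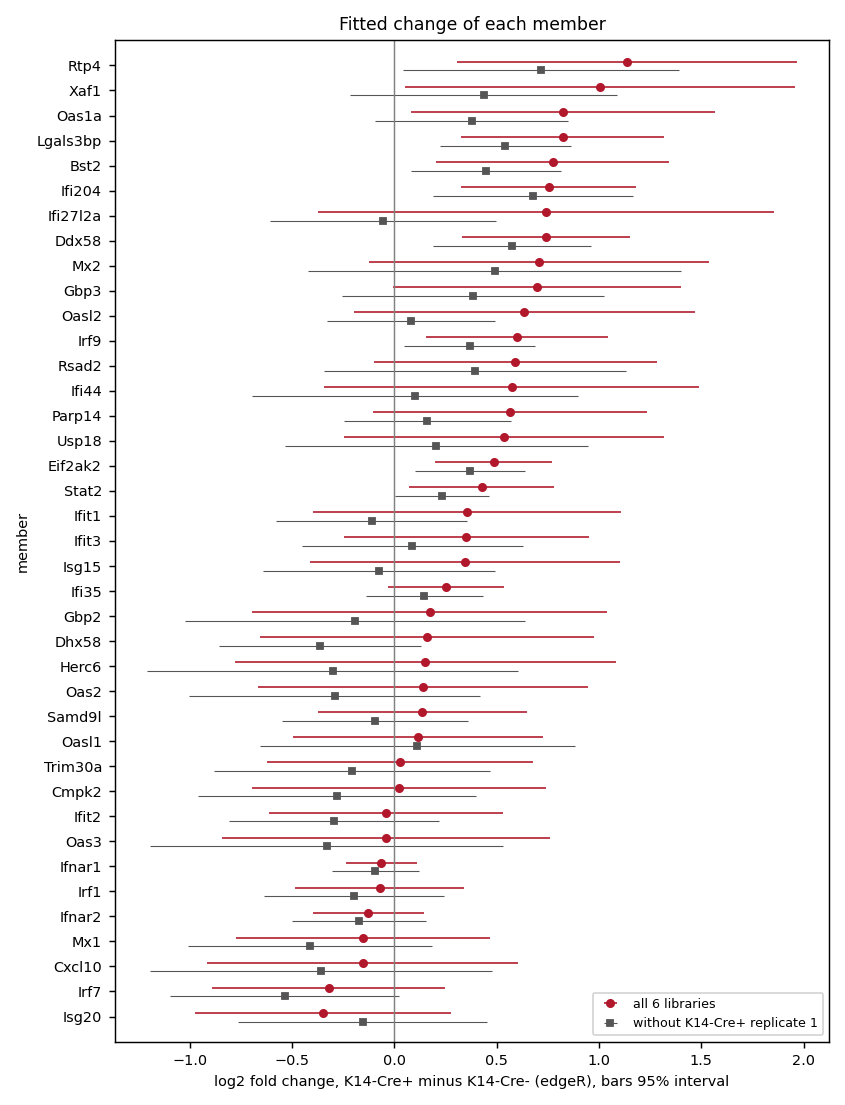
The edgeR log2 fold change (x axis, bars 95% interval) of each member (y axis) is given with all 6 libraries (red circles) and without K14-Cre+ replicate 1 (grey squares). Intervals of Ddx58, Ifi204 and Lgals3bp lie above 0 in both fits, and those of Isg15, Ifit1 and Ifi27l2a span 0 in both.

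By level, the members spanned a wide range. Per kilobase of exon, the K14-Cre- means ran from 0.177 CPM per kilobase for Herc6 to 13.5 for Irf7. Irf7, Bst2 (12.7) and Isg15 (10.2) were the highest members on that scale, followed by Ifi27l2a (8.64), Ifnar1 (8.27) and Ifi35 (7.73). The K14-Cre- ranges of Irf7 and Bst2 overlapped, and so did those of Bst2 and Isg15. Within single K14-Cre- libraries the order of Irf7 and Bst2 changed from library to library. Bst2 lay above Isg15 in every library of both groups. In K14-Cre+ libraries the first place went to Bst2, with a mean of 21.6 CPM per kilobase, ahead of Ifi27l2a (14.3) and Isg15 (12.8). Without replicate 1 the means were 17.3 for Bst2, 8.31 for Ifi27l2a and 9.63 for Isg15, so the place of Ifi27l2a above Isg15 rested on that library. In each role the most abundant member was Ifnar1, Irf7, Ifit3, Oasl2, Eif2ak2, Isg15, Mx1, Bst2 or Ifi27l2a by the K14-Cre- mean.

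**Figure D4:**
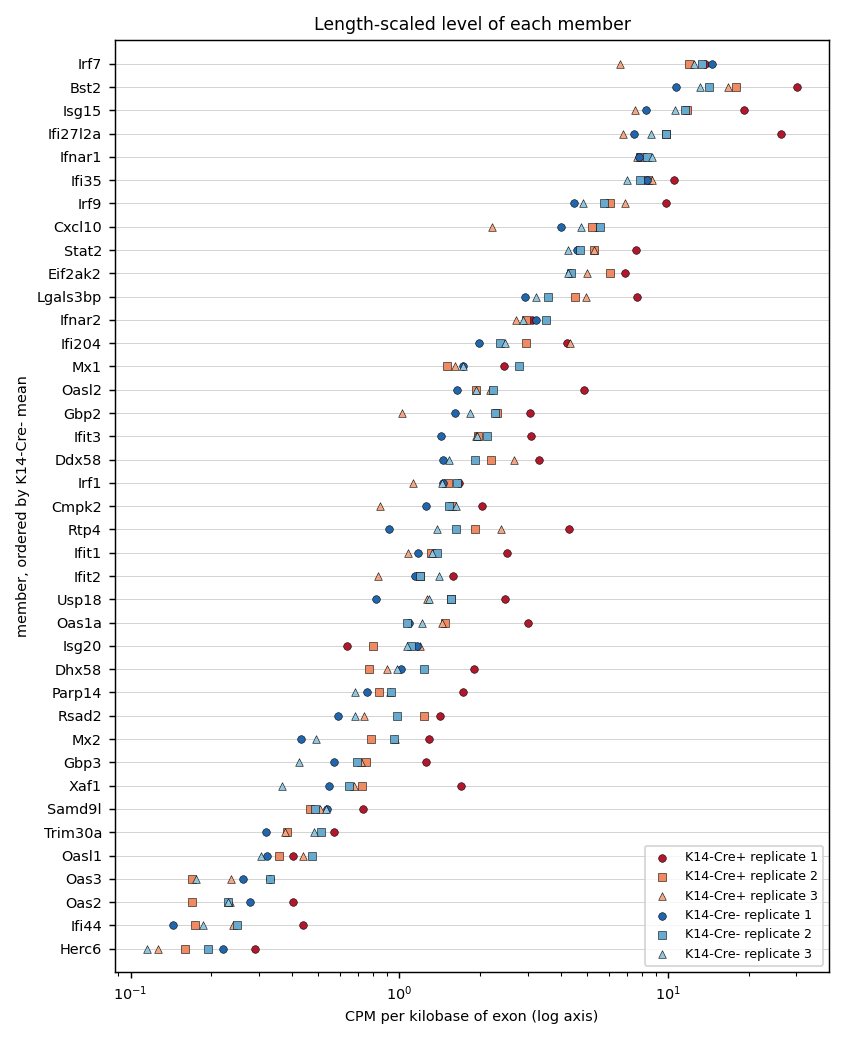
CPM per kilobase of exon (x axis, log scale) of the 39 members (y axis, ordered by the K14-Cre- mean), 1 point per library. The K14-Cre- means run from 0.177 for Herc6 to 13.5 for Irf7.

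Transcripts of the interferons themselves were at or near the floor. Of 20 genes for type I and type III interferons that were looked up, 16 were in the table and 0 passed the count filter. Ifnb1, which encodes interferon beta, had 4, 2 and 0 counts in K14-Cre+ and 2, 0 and 1 counts in K14-Cre- libraries. Ifnk, the interferon gene of keratinocytes, had 1, 1 and 3 against 3, 1 and 3 counts. Ifng, for interferon gamma, had 1 count in each of 2 libraries, 1 of each group. No difference between the groups was detectable for these genes at this depth.

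Receptors and kinases outside the member list did not pass the threshold either. Of 12 genes, for kinases, STAT and IRF factors and the IRF2-binding protein Irf2bp2, 0 were called. Irf3, the factor downstream of nucleic acid sensors, had the smallest adjusted p of them, with a log2 fold change of -0.24 (adjusted p = 0.217 by edgeR). Irf2bp2 and Irf5 followed, at 0.25 and 0.30 (adjusted p = 0.333 by edgeR for both). Of the interferon gamma and lambda receptor genes 4 were tested and 0 called. Ifngr1, the ligand-binding chain of the interferon gamma receptor, lay at 25.6, 19.1 and 83.7 CPM against 17.6, 21.6 and 21.1 CPM, so the high value belonged to replicate 3. Among 11 feedback inhibitors 0 were called, and the phosphatase genes Ptpn6 and Ptpn11 had -0.28 and 0.17 (adjusted p = 0.146 and 0.238 by edgeR). Socs2, a cytokine-induced inhibitor gene, had 0.63 (adjusted p = 0.374 by edgeR).

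A list of 45 further interferon-stimulated genes had 44 tested, 0 called, and 7 higher and 3 lower at an unadjusted p under 0.05, which is 15.9% and 6.82% against 10.3% and 8.48% of all genes. Positive log2 fold changes were found for 35 of the 44 (79.5%, against 49.0% of all genes), with a median of 0.26. K14-Cre+ replicate 1 was the highest library for 25 of them (56.8%, against 14.2% of all genes). Parp12, an antiviral ADP-ribosyltransferase gene, lay at 38.5, 28.6 and 35.8 CPM against 21.5, 23.1 and 22.2 CPM, with a log2 fold change of 0.63 (adjusted p = 0.0784 by edgeR, SE 0.12). Trim25, the ubiquitin ligase that activates RIG-I, lay at 69.2, 66.8 and 61.9 CPM against 49.8, 54.6 and 51.3 CPM, with 0.35 (adjusted p = 0.101 by edgeR, SE 0.074). Tdrd7 had 0.77 (adjusted p = 0.109 by edgeR). In these 3 genes all K14-Cre+ libraries lay above all K14-Cre- libraries, against 14.1% of all tested genes. Of 18 genes that respond mostly to interferon gamma, 12 were tested and 0 called. Nlrc5, the activator of class I histocompatibility genes, had 0.82 (adjusted p = 0.130 by edgeR), and Irgm1 had 0.57 (adjusted p = 0.264 by edgeR). Ciita, the activator of class II genes, had -2.47 (adjusted p = 0.185 by edgeR). Its counts were low, at 6, 14 and 0 in K14-Cre+ and 55, 21 and 37 in K14-Cre- libraries.

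Markers of other cell types were present in the sorted cells and differed between libraries, and fewer cells of a type cannot be told apart from less RNA per cell. The 6 endothelial markers summed to 24.1, 2.12 and 2.38 CPM in K14-Cre+ and to 2.93, 8.54 and 20.8 CPM in K14-Cre- libraries. The 6 fibroblast markers summed to 1368, 176 and 226 CPM against 196, 288 and 811 CPM. By these sums K14-Cre+ replicate 1 was the highest library for both lists, as it was for the interferon-stimulated genes. K14-Cre- replicate 3 came next for both lists, with a median log2 ratio of the members of -0.056. Of the single markers tested, K14-Cre+ replicate 1 was highest for 3 of 5 endothelial and 5 of 6 fibroblast genes. For the others K14-Cre- replicate 3 was highest. The endothelial markers Cldn5 and Emcn were at 0 in 1 library each. The 7 T cell markers in the table summed to 13.6 to 19.1 CPM in K14-Cre+ and 21.2 to 26.3 CPM in K14-Cre- libraries. Of the 6 tested, 5 were lower in every K14-Cre+ library, against 13.8% of all tested genes. Ptprc, which all leukocytes express, made up much of that sum and had a log2 fold change of 0.0042. The other 6 summed to 5.75 to 6.92 CPM against 11.95 to 15.7 CPM, a split made after their values were seen.

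The 11 markers of Langerhans cells, dendritic cells and macrophages summed to 104 to 144 CPM against 131 to 164 CPM, 1 of them called higher (Lyz2) and 1 lower (H2-Ab1), and Cd207 was at 0 in 1 library. The sum joined genes that differed in opposite directions, with 4 higher and 3 lower at an unadjusted p under 0.05. Of the 10 tested, 4 had a positive log2 fold change and 6 a negative one. The 4 were Lyz2 (1.33), Mpeg1 (0.9998), Adgre1 (0.625) and Cd68 (0.49), grouped after their values were seen. In each of these 4 all K14-Cre+ libraries lay above all K14-Cre- libraries, against 14.1% of all tested genes. For Adgre1 the margin was small. The macrophage gene Csf1r was among the 6. Its groups overlapped, with 1057, 803 and 522 counts in K14-Cre+ and 818, 816 and 761 counts in K14-Cre- libraries. The antigen presentation genes Cd74 and H2-Ab1 had -2.42 and -2.29. The 5 neutrophil markers summed to 8.41 to 18.7 CPM against 7.42 to 13.9 CPM, and Ly6g was at 0 in all libraries. All 6 melanocyte markers were called higher, against 0.406% of all genes, and they summed to 623 to 736 CPM against 352 to 406 CPM. The most abundant marker by mean CPM over the 6 libraries was Ptprc for T cells, Csf1r for the myeloid list and S100a9 for neutrophils. It was Kdr for endothelium, Col3a1 for fibroblasts and Dct for melanocytes. The order changed between libraries. Dcn lay above Col3a1 in replicates 2 and 3 of K14-Cre+ and replicates 1 and 2 of K14-Cre-. Cd74 lay above Csf1r in K14-Cre- replicates 1 and 3. The part of these cells in the values of the interferon-stimulated genes was not tested.

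**Figure D5:**
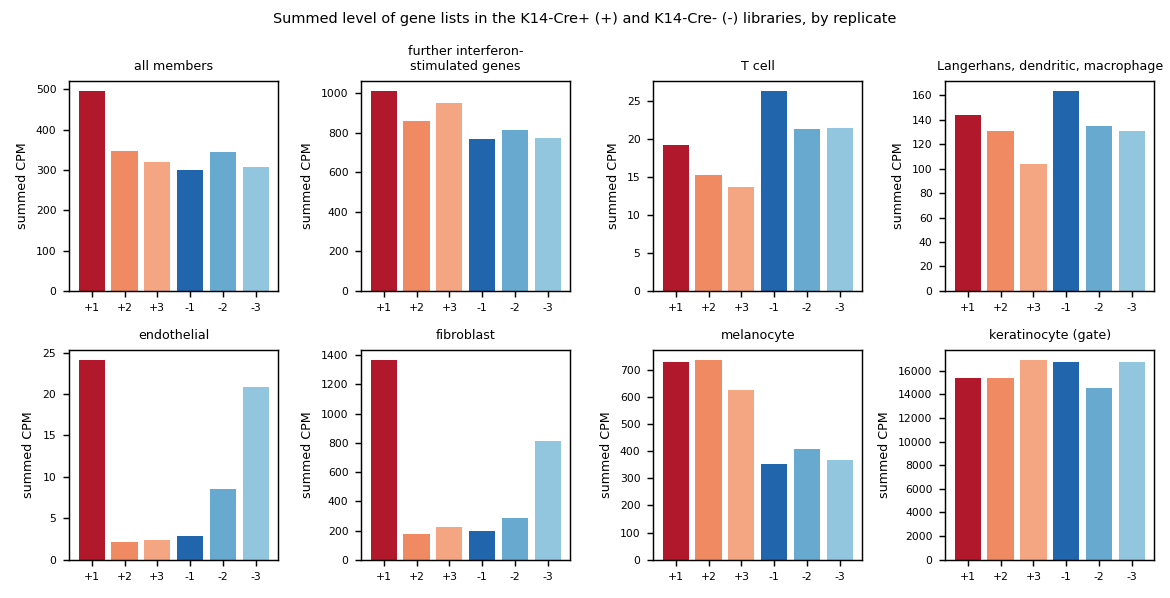
Each panel gives the summed CPM of a gene list (y axis, from 0) in the K14-Cre+ (+1 to +3) and K14-Cre- (-1 to -3) libraries (x axis). The members are highest in +1, at 495.9 CPM against 299.8 to 347 in the other libraries, and the endothelial and fibroblast lists are high in +1 and -3.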

How the data were processed

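RNA-seq read counts per gene were analysed for 3 K14-Cre+ and 3 K14-Cre- libraries. The deposited counts were made by the authors with GSNAP and featureCounts on mm10, per the submitters' processing notes; no label states versions or the strand setting, though the kit named in the labels marks strand. Library totals were 22948779 to 31718094 counts, and the floor of 3 counts reflects counting error alone. The filterByExpr function of edgeR (minimum count 10) left 15525 of 38924 genes, which were scaled by TMM and tested with edgeR 4.0.16 (quasi-likelihood, Benjamini-Hochberg over all genes tested, threshold 0.05) in R 4.3.3. Alternatives used DESeq2 1.42.0, limma 3.58.1 (voom), other scalings and filters, sex as a covariate and each library left out. The tests were tried on simulated data. Promoter windows came from RefSeq. All members are accounted for by role, with values for those with the smallest adjusted p and the most abundant of each role, and up to 3 genes of each other pathway list by adjusted p. The members and lists were chosen with earlier results of these data known. Within a group the libraries differed by more than sampling noise (chi-square per degree of freedom 9.11 to 70.4), so none was counted as a duplicate. One pathway gene outside the member list is not reported here.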

Additional observations from a re-analysis of the deposited data

How the results depend on the processing

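The log2 fold changes kept their sign under all 13 alternatives for 23 of the 37 members run under each; Oasl1 and Herc6 fell below the minimum mean of 1 CPM, and under the other 12 Oasl1 kept its sign and Herc6 did not, and the median over the members stayed positive, from 0.081 without K14-Cre+ replicate 1 to 0.52 without K14-Cre+ replicate 3. Of all genes 80 were called by edgeR with all libraries, 41 with scaling by total count alone, 837 by the DESeq2 Wald test, 142 with no filter beyond 1 count, 42 with sex as a covariate and 0 to 422 with 1 library left out. Scaling by total count moved the median of all genes by -0.113. Of the members 0 were called, 5 by DESeq2 and 0 to 1 with 1 library left out, the 1 being Eif2ak2 without K14-Cre+ replicate 3. Of the 83 other pathway genes tested with all libraries 0 were called, and 6 by DESeq2 (Tdrd7, Parp12, Ifitm3, Nlrc5, Slfn2 and Trim25). With 1 library left out 0 to 3 other pathway genes were called, the 3 being Nlrc5, Lgals9 and Trim25 without K14-Cre+ replicate 3. Among all genes DESeq2 called 3.57% higher, and edgeR without K14-Cre+ replicate 3 called 1.81% higher. The 10 members higher at an unadjusted p under 0.05 became 5 with total count alone (5.71% of all genes), 7 with sex as a covariate (12.3% of all genes), and 4 (without K14-Cre- replicate 1, 6.49% of all genes) to 17 (without K14-Cre+ replicate 3, 10.4% of all genes) with 1 library left out.

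With sex as a covariate the log2 fold change was -0.0050 for Dhx58, -0.063 for Herc6, -0.22 for Gbp2, -0.24 for Cmpk2 and -0.093 for Trim30a. With total count alone it was -0.065 for Cmpk2 and -0.076 for Trim30a, and with limma-voom -0.0076 for Cmpk2. With 1 library left out it ran from -0.20 to 0.075 for Irf1, -0.11 to 0.58 for Ifit1, -0.30 to 0.16 for Ifit2, -0.29 to 0.38 for Oas2, -0.33 to 0.18 for Oas3, -0.36 to 0.39 for Dhx58, -0.075 to 0.61 for Isg15 and -0.30 to 0.37 for Herc6. It ran from -0.41 to 0.12 for Mx1, -0.19 to 0.50 for Gbp2, -0.28 to 0.30 for Cmpk2, -0.094 to 0.26 for Samd9l, -0.21 to 0.16 for Trim30a, -0.054 to 1.07 for Ifi27l2a and -0.36 to 0.15 for Cxcl10. The cause of these changes was not tested. The core was found in 56.7% of members with 1 or 2 bases allowed between the repeats, against 7.27% of genes, and in 40.0% counting only bases before the start, against 3.46%. No paired analysis was possible because the labels give no replicate numbers.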
